A study of Sus scrofa with 6 samples.

Results

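Receptor tyrosine phosphatases are membrane proteins that remove phosphate from tyrosine residues inside the cell, while their outer part binds matrix, neighbouring cells or other receptors. The records described here are those of the deposited gene table whose symbol is PTPR followed by a single letter, with or without a digit. They numbered 7 of 7661 gene records, namely PTPRS, PTPRG, PTPRB, PTPRK, PTPRM, PTPRA and PTPRC. The Ensembl name table holds 20 pig genes of that naming pattern, and the other 13 are not analysed here. A record belongs to the set by its symbol, but the family itself was chosen by measured values, the fold change and adjusted p of PTPRS between these same libraries. The difference of PTPRS between the groups is therefore given as a description.

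The libraries came from longissimus muscle, the long muscle of the back, of pigs (Sus scrofa). The high group held 3 libraries from muscle with a high and the low group 3 libraries from muscle with a low content of intramuscular fat, the fat within the muscle. The labels used here name no breed, sex, age, feeding, genotype or treatment for either group. Transcripts were counted by RNA sequencing of total RNA, with library totals of 25371989 to 28874691 reads in the high group and 30139025 to 34813172 reads in the low group. Levels are given as TMM CPM, counts relative to the library total (CPM) scaled with TMM factors, a correction for differences in composition between libraries. They are not divided by transcript length, so levels are compared between groups for a gene and not between genes. The muscle markers of the labelled tissue were abundant in every library, their 7 records summing to 67030 to 73070 TMM CPM in the high group and 63370 to 80180 TMM CPM in the low group. Across genes, Spearman's rho was 0.950 to 0.962 within the high group and 0.915 to 0.940 within the low group. Low library 1 was closer to high library 1 (0.942) than to either of the other low libraries.

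PTPRS is the receptor phosphatase sigma, which in mouse nerve binds the heparan sulfate and chondroitin sulfate chains of matrix proteoglycans. Together with PTPRD and PTPRF it forms the type IIa subgroup, whose outer part carries immunoglobulin and fibronectin domains. PTPRG has a carbonic anhydrase-like outer domain. PTPRB, the vascular endothelial phosphatase, acts on the angiopoietin receptor TEK. PTPRK and PTPRM are adhesion molecules that bind their own kind on neighbouring cells. PTPRA has a short outer part and activates kinases of the SRC family, and PTPRC is CD45, the abundant phosphatase of leukocytes.

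PTPRS was 2.40-fold higher in the high group. Its record ENSSSCG00000028612 lies on chromosome 2 from 74357680 to 74418111 in the coordinates of the deposited table, a genomic span of 60.4 kb. The high libraries 1 to 3 held 468, 498 and 666 reads of it, and the low libraries 1 to 3 held 345, 256 and 231 reads. On the scaled measure these were 19.3, 18.9 and 23.2 TMM CPM in the high libraries and 9.81, 7.60 and 8.16 TMM CPM in the low libraries. The lowest high library thus stood well above the highest low library, and the groups did not overlap. The means were 20.5 ± 2.38 TMM CPM in the high group and 8.52 ± 1.14 TMM CPM in the low group (SD, n = 3 each), with coefficients of variation of 11.7% and 13.4%. The log2 fold change was 1.26 (SE 0.16, 95% interval 0.89 to 1.64). In bulk muscle, fewer cells of a type and less RNA per cell cannot be told apart.

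The value that had drawn attention to PTPRS was its adjusted p of 0.0499 in edgeR's quasi-likelihood test, just inside the threshold of 0.05. It ranked 11th of 7661 records by unadjusted p and was the last one called. The record ranked next inside was FASN on its record ENSSSCG00000023044 (adjusted p = 0.0446), and the first ones outside were ASPN (adjusted p = 0.0525) and ELOVL5 (adjusted p = 0.0551), all by the same test. In all, the test called 10 records higher in the high group, 0.131% of the table, and 1 lower, 0.0131%. Of the 7 phosphatase records PTPRS was the 1 called. The size of its difference moved little when single libraries were left out, between 1.16 without high library 3 and 1.39 without low library 1, but the call did not hold. The edgeR adjusted p was 0.126, 0.208 and 0.158 without high libraries 1, 2 and 3, and 0.170 and 0.105 without low libraries 2 and 3. It was 0.0425 without low library 1.

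**Figure D1:**
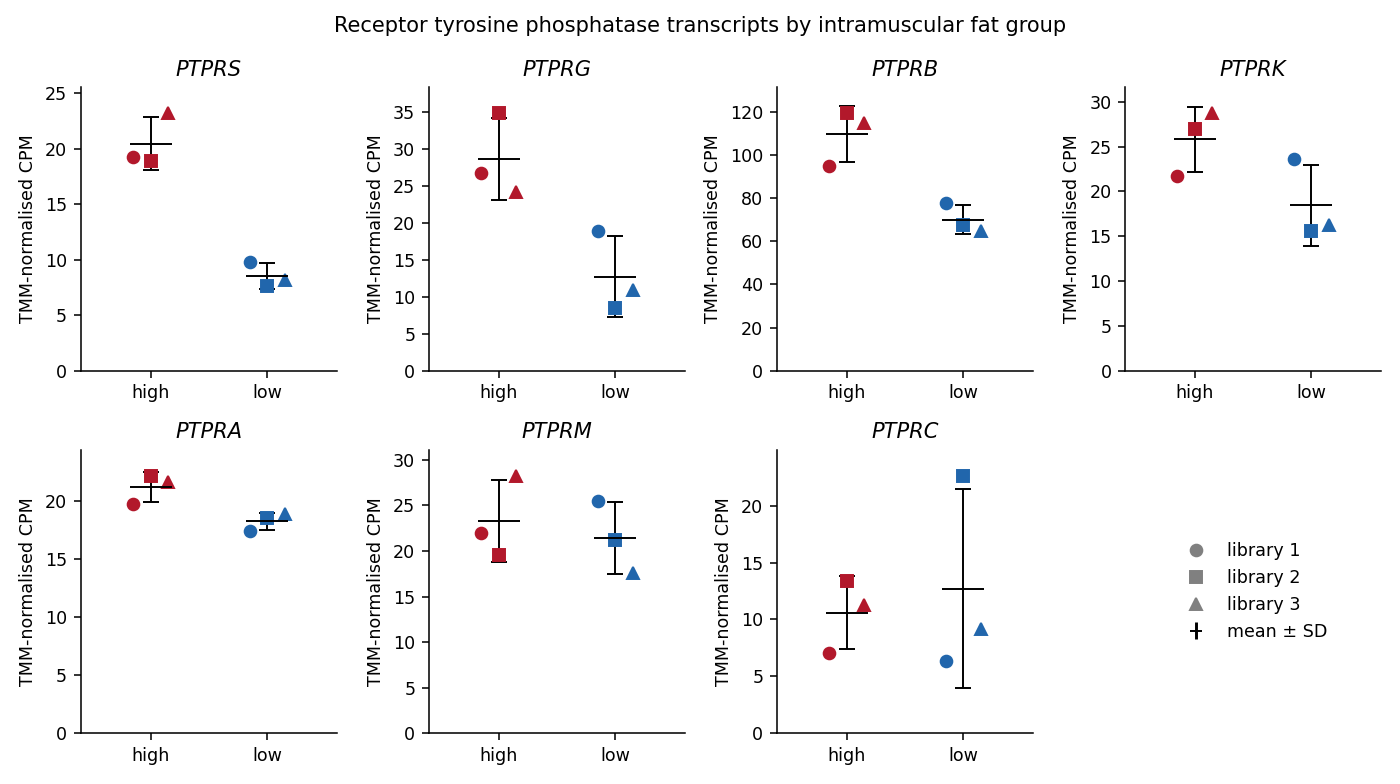
TMM CPM of the 7 receptor phosphatase records in each library, high group left and low group right in each panel, with circles, squares and triangles for libraries 1, 2 and 3 and black bars for mean ± SD (n = 3 each). The high and low points are apart for PTPRS, PTPRG, PTPRB and PTPRA, while they overlap for PTPRK, PTPRM and PTPRC, and low library 2 stands highest for PTPRC at 22.6.

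The entry condition of the table bears directly on PTPRS. Every record of the table exceeded 10 CPM, on the authors' deposited scale, in at least 3 libraries. PTPRS exceeded it in all 3 high libraries, at 18.4, 19.5 and 23.1 CPM, and in 0 low libraries, at 9.91, 8.16 and 7.66 CPM. It entered through the high group alone, and a record that enters this way has to be higher there. There were 71 such records, 0.927% of the table, with a median log2 fold change of 0.91 and a range of 0.40 to 2.94. Of these 71, 15 had a log2 fold change at least as large as that of PTPRS. Among the 6292 records over 10 CPM in every library, 20 did. The mirror case, over 10 CPM in all 3 low libraries and 0 high libraries, held 49 records with a median of -0.48. Of the other phosphatases, PTPRB, PTPRK, PTPRM and PTPRA exceeded 10 CPM in all 6 libraries. PTPRG did so in 3 high and 2 low libraries, and PTPRC in 2 high libraries and 1 low library.

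**Figure D2:**
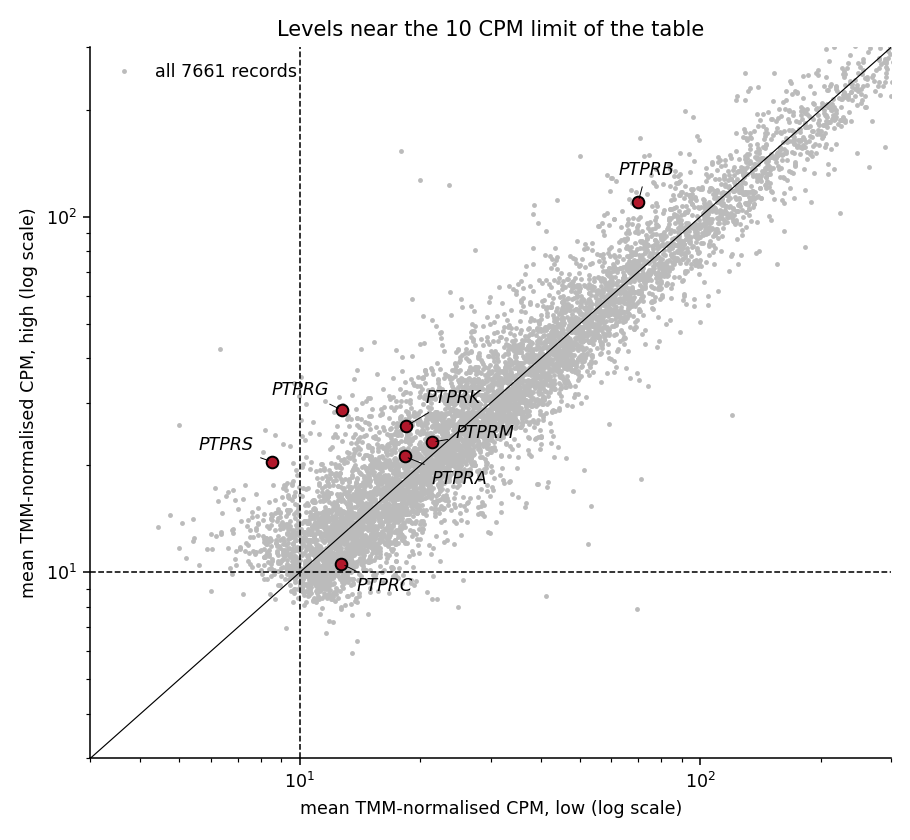
Mean TMM CPM in the low group (horizontal) and the high group (vertical), log scales, for the records of the table in grey and the 7 phosphatases in red, with dashed lines at 10 and a diagonal of equal levels. PTPRS lies left of the vertical line and above the horizontal one, at 8.52 low and 20.5 high, and PTPRC is the phosphatase below the diagonal. The axes leave 352 records outside.

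PTPRG showed the difference nearest in size to that of PTPRS, with more spread among the low libraries. Its record ENSSSCG00000011485 lies on chromosome 13 from 47722779 to 47868885. It stood at 26.8, 34.9 and 24.2 TMM CPM in high libraries 1 to 3 and at 18.9, 8.44 and 10.8 TMM CPM in low libraries 1 to 3. Low library 1 was the highest of its group, yet below every high library. The means were 28.6 ± 5.54 TMM CPM in the high group and 12.7 ± 5.48 TMM CPM in the low group (SD, n = 3 each), and the log2 fold change was 1.17 (SE 0.30, 95% interval 0.46 to 1.87). It did not pass the quasi-likelihood test (edgeR adjusted p = 0.138). With single libraries left out the log2 fold change was 0.94 to 1.59. The edgeR adjusted p was 0.0529 without low library 1 and 0.221 to 0.362 in the other 5 such fits. The authors' deposited table gives PTPRG a false discovery rate of 0.00790 and PTPRS one of 2.52e-05. In it 3.25% of all records were under 0.05 and higher in the high group, and 0.875% were under 0.05 and lower.

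PTPRB, the endothelial member, had the highest counts of the set, with 1830 to 3300 reads per library. On its record ENSSSCG00000000504 (chromosome 5, 37233902 to 37330156) it stood at 95.2, 119.6 and 115.0 TMM CPM in high libraries 1 to 3 and at 77.7, 67.8 and 64.7 TMM CPM in low libraries 1 to 3. All high libraries lay above all low libraries. The log2 fold change was 0.65 (SE 0.14, 95% interval 0.32 to 0.98), and the quasi-likelihood test did not pass (edgeR adjusted p = 0.111). Leaving out single libraries gave 0.59 to 0.75. The authors' deposited table lists it with a false discovery rate of 0.0492. The 13 endothelial marker records did not move with it as a list. Of these, 6 were higher and 7 lower in the high group, with 0 past the threshold and a median log2 fold change of -0.01, against -0.04 for all records. Their summed level was 554.9 to 657.4 TMM CPM in the high group and 499.2 to 640.1 TMM CPM in the low group, so the groups overlapped. The endothelial markers PECAM1 and VWF were present in every library. PECAM1 had a log2 fold change of 0.25 (SE 0.21) with overlapping groups, and VWF one of 0.66 (SE 0.26, edgeR adjusted p = 0.243) with all high libraries above all low libraries. Without low library 1 these were 0.52 for PECAM1 and 1.05 for VWF, and PECAM1 had 0.11 without low library 3. FLT-1 had 0.59 (SE 0.21), also with all high libraries above all low libraries. That pattern was found for 2 of the 13 marker records and for 13.5% of all records. The 7 lower marker records included KDR at -0.41 (SE 0.20), EGFL7 at -0.22 (SE 0.16) and ESAM at -0.19 (SE 0.18). The part of endothelial content in the level of PTPRB was not tested. TEK, the receptor on which PTPRB acts, had 0.34 (SE 0.18, edgeR adjusted p = 0.339), which was 0.51 without low library 1 and 0.19 without low library 2.

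The adhesion phosphatases PTPRK and PTPRM had smaller differences and overlapping groups. PTPRK (ENSSSCG00000004209, chromosome 1, 38212863 to 38839873) stood at 21.7, 26.9 and 28.8 TMM CPM in high libraries 1 to 3 and at 23.6, 15.5 and 16.2 TMM CPM in low libraries 1 to 3. Low library 1 lay above high library 1. Its log2 fold change was 0.48 (SE 0.20, 95% interval 0.02 to 0.95, edgeR adjusted p = 0.255), and 0.72 without low library 1. PTPRM (ENSSSCG00000028805, chromosome 6, 92514260 to 92549611) stood at 21.98, 19.5 and 28.3 TMM CPM in the high libraries and at 25.5, 21.2 and 17.6 TMM CPM in the low libraries. Its groups were interleaved, with a log2 fold change of 0.12 (SE 0.19, 95% interval -0.33 to 0.57, edgeR adjusted p = 0.756), which turned to -0.046 without high library 3.

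PTPRA, the activator of SRC family kinases, was the steadiest member. Its record ENSSSCG00000007166 (chromosome 17, 37009320 to 37073251) stood at 19.8, 22.2 and 21.6 TMM CPM in high libraries 1 to 3 and at 17.5, 18.5 and 18.9 TMM CPM in low libraries 1 to 3, with coefficients of variation of 6.04% and 4.04%. The groups did not overlap, but the gap was small. The log2 fold change was 0.21 (SE 0.12, 95% interval -0.07 to 0.50), and the test did not pass (edgeR adjusted p = 0.367).

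PTPRC was the 1 member that was lower in the high group, and 1 library set its direction. On its record ENSSSCG00000010908 (chromosome 10, 26313638 to 26331816) it stood at 7.08, 13.4 and 11.3 TMM CPM in high libraries 1 to 3 and at 6.34, 22.6 and 9.15 TMM CPM in low libraries 1 to 3. Low library 2 was the highest and low library 1 the lowest of all. The log2 fold change was -0.26 (SE 0.47, 95% interval -1.35 to 0.82, edgeR adjusted p = 0.777), and it was 0.45 without low library 2. Of 18 leukocyte and macrophage markers, 6 were matched to 7 records, whose summed level was 159.6 to 236.9 TMM CPM in the high group and 96.5, 245.2 and 271.5 TMM CPM in low libraries 1 to 3. LCP1, an actin bundling protein of leukocytes, was the record most like PTPRC in its pattern, at 12.4, 18.9 and 17.9 TMM CPM in the high libraries and 10.2, 33.3 and 16.9 TMM CPM in the low libraries. Of the 7 marker records 2 were higher and 5 lower in the high group, with 0 past the threshold and a median log2 fold change of -0.15. The 2 higher ones were the macrophage receptors MRC1 at 0.76 (SE 0.36) and CSF1R at 0.54 (SE 0.24). For CSF1R all high libraries lay above all low libraries, a pattern of 1 of the 7 and of 13.5% of all records. The complement genes C1QA, C1QB and C1QC of macrophages, which gave 4 of the 5 lower records, were highest in low library 3. The part of leukocyte content in the level of PTPRC was not tested.

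Seen as a set, 6 of the 7 records were higher and 1 lower in the high group, with a median log2 fold change of 0.48 against -0.04 for all 7661 records. The groups did not overlap in 4 of the 7, each with the high group above, where 13.5% of all records had that pattern. An unadjusted edgeR p under 0.05 in the higher direction was found for 4 of the 7, PTPRS, PTPRB, PTPRG and PTPRK, and for 10.3% of all records. In the lower direction it was found for 0 of the 7 and for 8.41% of all records. PTPRS counts in the median and in each figure for the higher direction, although its values chose the family and its entry fixed its direction. Without PTPRS, 5 of 6 were higher, and in 3 of 6 the groups did not overlap. Apart from PTPRS, 0 of 6 passed after adjustment, with adjusted p of 0.111 to 0.777 in edgeR's quasi-likelihood test. DESeq2 and edgeR's exact test, which called 4.92% and 3.25% of the table higher, each called PTPRS, PTPRG and PTPRB. They called 1.84% and 0.875% of the table lower, and 0 of the 7 members among these. The family was taken up with these results known and 3 of its records lie near the entry limit, so the counts describe the listed members and say nothing on the family at large.

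**Figure D3:**
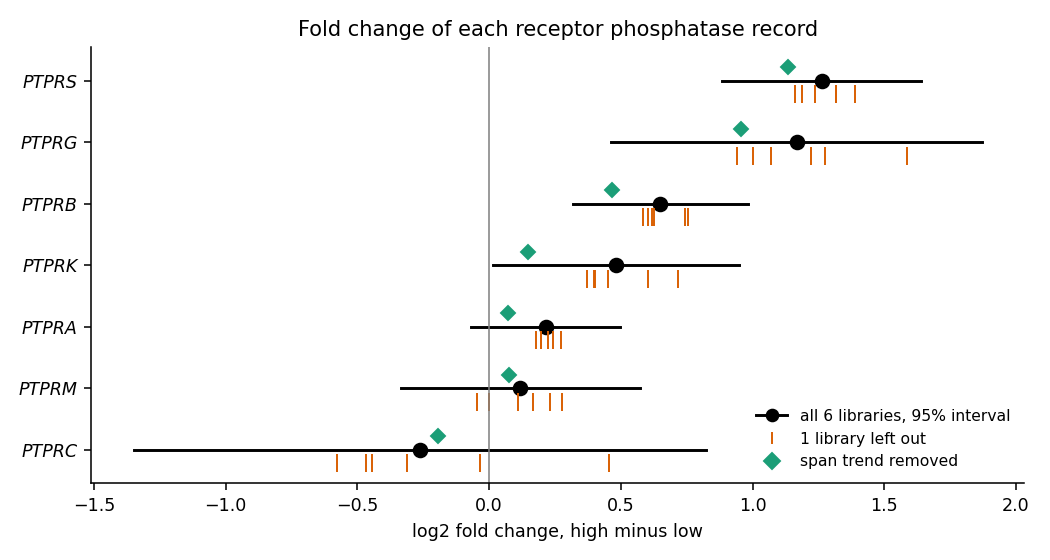
Log2 fold change (high minus low) of the 7 records from edgeR's quasi-likelihood fit, with 95% intervals as black lines, each of the 6 fits with 1 library left out as orange ticks and the fit with the trend over genomic span removed as green diamonds. The ticks and diamond of PTPRS lie between 1.13 and 1.39, whereas the ticks of PTPRC reach from -0.58 to 0.45.

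The members differ in genomic span, and across the table fold changes were larger at longer spans. With the records in 10 bins by span, the median log2 fold change was -0.18 in the bin of the shortest and 0.22 in the bin of the longest records. PTPRK, with 627 kb, is among the longest records listed, PTPRG spans 146 kb, PTPRB 96.3 kb, PTPRA 63.9 kb, PTPRM 35.4 kb and PTPRC 18.2 kb. With that trend removed in each library, the median of the 7 records was 0.15. PTPRS then had 1.13 (edgeR adjusted p = 0.0736) and PTPRG 0.96 (edgeR adjusted p = 0.198). PTPRB had 0.47, PTPRK 0.15, PTPRA 0.07, PTPRM 0.07 and PTPRC -0.19, and 0 of the 7 passed in this fit. The bin that holds PTPRS, with a median span of 52.2 kb, had a median log2 fold change of 0.10 before the trend was removed.

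**Figure D4:**
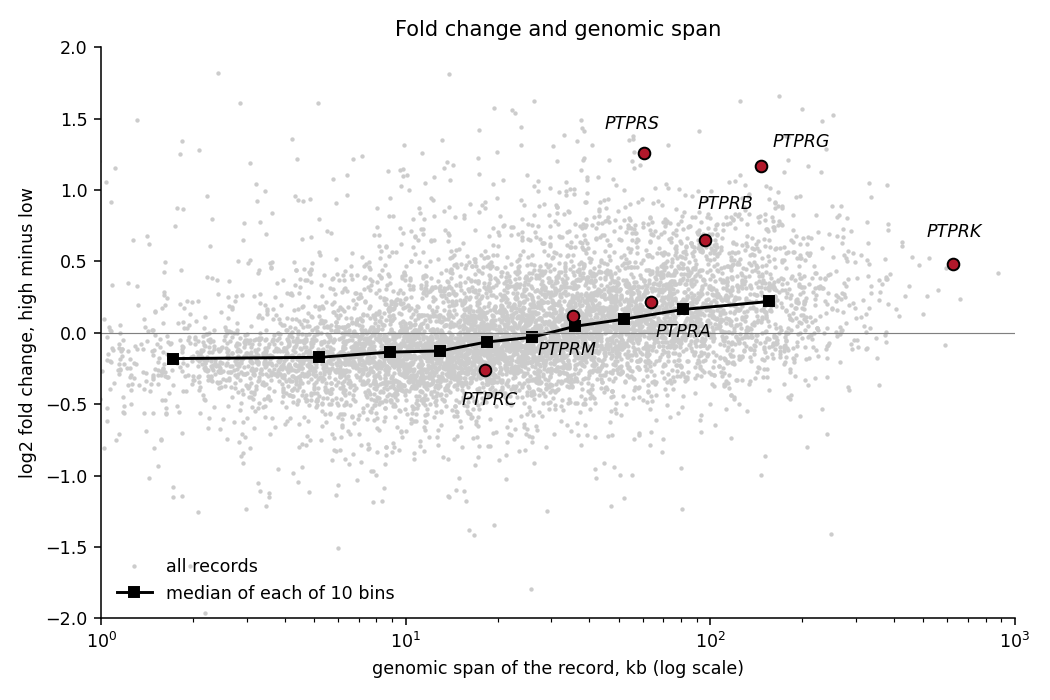
Genomic span of each record in kb (log scale) against its log2 fold change, high minus low, with all records in grey, the median of each of 10 span bins as black squares and the 7 phosphatases in red. The squares climb from -0.18 to 0.22, and PTPRS and PTPRG lie above 1 while PTPRM and PTPRA lie near the squares. The axes leave 254 records outside.

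The records whose pattern over the 6 libraries was most like that of PTPRS were sought among 6818 records with a symbol, by the root mean square difference between log2 profiles centred on their own means. The nearest was NOTCH2, which receives signals from adjacent cells, at 0.12, where the median over all records was 0.69. It stood at 44.7, 53.1 and 50.4 TMM CPM in the high libraries and at 24.8, 19.2 and 21.6 TMM CPM in the low libraries. ASPH, an aspartyl hydroxylase, followed on its record ENSSSCG00000025087 at 0.15. Elastin (ELN) and the collagen receptor DDR2 were each at 0.16, and FHL5, a LIM domain protein, was at 0.17. The profiles matched hold the difference between the groups, so distances below the median and fold changes near that of PTPRS follow from the search. The log2 fold changes were 1.18 for NOTCH2, 1.11 for ASPH, 0.96 for ELN, 1.38 for DDR2 and 0.94 for FHL5. Only NOTCH2 of these 5 passed the threshold (edgeR adjusted p = 0.0437). Among the phosphatases themselves, PTPRB and PTPRG were each at 0.33 from PTPRS and PTPRC was farthest at 0.97, while PTPRB and PTPRK were the closest pair at 0.15.

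The proteoglycans that type IIa phosphatases bind were measured in 10 of 21 listed genes. In the high group 7 were higher and 3 lower, with 0 past the threshold and a median log2 fold change of 0.17. Perlecan (HSPG2), the large heparan sulfate proteoglycan of basement membranes, averaged 218.8 ± 6.84 TMM CPM in the high group and 123.4 ± 28.7 TMM CPM in the low group (SD, n = 3 each), a difference of 0.83 (SE 0.18, edgeR adjusted p = 0.110). Versican (VCAN), a chondroitin sulfate proteoglycan, had 0.81 (SE 0.23, edgeR adjusted p = 0.157). Both had all high libraries above all low libraries, a pattern of 2 of the 10 genes and of 13.5% of all records. VCAN had 0.53 without high library 2. The glypicans, heparan sulfate proteoglycans anchored in the membrane, went different ways, GPC3 at 0.72 (SE 0.30) and GPC1 at -0.43 (SE 0.24), with overlapping groups. GPC3 had 1.12 without low library 3 and GPC1 -0.73 without high library 1.

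The enzymes that build and trim the sugar chains were measured in 12 of 41 genes, 8 higher and 4 lower, with 0 past the threshold and a median of 0.15. UST, a sulfotransferase of chondroitin and dermatan sulfate, averaged 16.2 ± 1.70 TMM CPM in the high group and 9.39 ± 0.418 TMM CPM in the low group (SD, n = 3 each). Its log2 fold change was 0.78 (SE 0.14, edgeR adjusted p = 0.0910). SULF1, which removes sulfate from heparan sulfate outside the cell, had 0.46 (SE 0.17). B3GAT3, which completes the linker on which the chains are built, had -0.40 (SE 0.15), its high libraries all below its low libraries. It was the 1 of the 12 with that pattern, and 2, UST and SULF1, had all high libraries above. Of all records 13.3% lay below and 13.5% above in this way. UST, like PTPRS, exceeded the entry limit of 10 CPM in the high libraries alone, so its entry fixed its direction. NDST2, a sulfotransferase of heparan sulfate, had -0.35 (SE 0.15).

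Adhesion partners outside the proteoglycans were measured in 3 of 15 genes, all higher in the high group and 0 past the threshold, with a median of 0.79. The laminin chain LAMC1 had 0.73 (SE 0.22), the laminin binding nidogen NID1 0.79 (SE 0.28) and IL1RAP, the accessory protein of the interleukin receptor, 1.35 (SE 0.64). The groups overlapped for NID1 and IL1RAP. For LAMC1 all high libraries lay above all low libraries, a pattern of 1 of the 3 and of 13.5% of all records. Without high library 3 IL1RAP had 0.64, and without low library 3 it had 1.93. Its spread was wide, at 16.9 ± 12.35 TMM CPM in the high group and 6.64 ± 3.99 TMM CPM in the low group (SD, n = 3 each).

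Inside the cell, cytoplasmic partners and processing enzymes were measured in 14 of 20 genes with 15 records, 10 higher and 5 lower, with 0 past the threshold and a median of 0.08. The scaffold proteins CASK and ERC1 had 0.38 (SE 0.12) and 0.51 (SE 0.21), the actin regulator ENAH 0.77 (SE 0.36) and the KANK1 record ENSSSCG00000005234 -0.40 (SE 0.20). Single libraries moved these values, ERC1 to 0.325 without high library 2, ENAH to 0.45 without low library 2 and 1.16 without low library 3, and KANK1 to -0.24 without low library 1. Substrates linked to the type IIa phosphatases were measured in 13 of 20 genes with 15 records, again 10 higher and 5 lower with 0 past the threshold, and a median of 0.16. The docking protein BCAR1 had -0.57 (SE 0.19), the catenin CTNND1 0.41 (SE 0.14), the growth factor receptor EGFR 0.63 (SE 0.24) and the kinase ABL1 0.32 (SE 0.13). For BCAR1 the high libraries were all below the low libraries, and for CTNND1, EGFR, ABL1 and CTNNB1 they were all above. These were 1 of 15 records below and 4 of 15 above, against 13.3% and 13.5% of all records. EGFR had 0.39 without low library 3.

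Ligands and substrates of the other receptor phosphatases were measured in 12 of 26 genes with 13 records, 8 higher and 5 lower, with 0 past the threshold and a median of 0.07. The endothelial receptor KDR had -0.41 (SE 0.20), the matrix protein THBS1 1.11 (SE 0.55) and the junction protein afadin, listed as MLLT4, 0.37 (SE 0.21). Single libraries decided the value of THBS1, which was 0.49 without high library 2. Leaving out low library 3 gave THBS1 1.87 instead, and MLLT4 had 0.16 without low library 3. Taking the 6 lists of partners as 1, 0 of 68 records passed the threshold. Of all records 0.131% were called higher and 0.0131% lower. At these shares a count of 0 in this or a shorter list says little on its members.

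The non-receptor tyrosine phosphatases, which lack a membrane span, were measured in 9 of 17 genes. Of these 5 were higher in the high group and 4 lower, with 0 past the threshold and a median of 0.41, or 0.24 with the span trend removed. The 5 higher ones had all high libraries above all low libraries, against 13.5% of all records, and 0 of the 4 lower ones had all high libraries below, against 13.3% of all records. The following were picked after their values were seen. PTPN14 stood at 15.8, 15.01 and 17.2 TMM CPM in high libraries 1 to 3 and at 9.32, 9.33 and 7.42 TMM CPM in low libraries 1 to 3, with a log2 fold change of 0.88 (SE 0.15, edgeR adjusted p = 0.0910). PTPN4 had 0.82 (SE 0.18) and PTPN13 0.66 (SE 0.14), both with an edgeR adjusted p of 0.111. PTPN11, the SHP2 phosphatase of growth factor signalling, had 0.41 (SE 0.14, edgeR adjusted p = 0.191). The 4 lower ones were PTPN1 at -0.45 (SE 0.28), PTPN2 at -0.11 (SE 0.14), PTPN3 at -0.06 (SE 0.28) and PTPN9 at -0.05 (SE 0.19). The other phosphatases acting on tyrosine were measured in 15 of 27 genes with 17 records, of which PTPLA and PTPLAD1 encode dehydratases in spite of their names. Of these records 7 were higher and 10 lower with 0 past the threshold and a median of -0.02.

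Markers of other cells in muscle moved with the groups to different extents. All 17 fibroblast and progenitor records were higher in the high group, with 0 past the threshold and a median of 0.82. They came from 14 genes, some with more than 1 record. In 12 of the 17 all high libraries lay above all low libraries, against 13.5% of all records. In 0 of the 17 they all lay below, against 13.3% of all records. The summed level of the 17 records was 3716 to 4835 TMM CPM in the high group and 1572 to 3251 TMM CPM in the low group, without overlap. Without COL3A1, the highest record, it was 2232 to 2786 TMM CPM in the high group and 945.4 to 2069 TMM CPM in the low group. The 10 adipocyte records, 7 higher and 3 lower, had a median of 1.04 and summed to 844.9 to 1072 TMM CPM in the high group and 730.2 to 824.0 TMM CPM in the low group. Most of that sum was GPD1, an enzyme of glycerol phosphate metabolism, and without it the sum was 255.7 to 462.7 TMM CPM in the high group and 203.7 to 244.2 TMM CPM in the low group. The 3 lower records were AQP7 at -0.66 (SE 0.24), CFD at -0.24 (SE 0.22) and ATGL at -0.02 (SE 0.25). For AQP7 all high libraries lay below all low libraries, a pattern of 1 of the 10 and of 13.3% of all records. In 5 of the 10 they all lay above, against 13.5% of all records. PLIN1 of the lipid droplet was the 1 of the 10 past the threshold (2.75, edgeR adjusted p = 0.0404), where 0.131% of all records were called higher. PLIN1, CIDEA and CIDE-C exceeded the entry limit of 10 CPM in the high libraries alone, so their entry fixed their direction. They count in the median of 1.04. The 3 Schwann cell and nerve records overlapped in their sums, 69.2 to 81.0 TMM CPM in the high group and 65.3 to 70.8 TMM CPM in the low group. Most of that sum was NCAM1, and without it the sum was 22.3 to 34.3 TMM CPM in the high group and 27.3 to 31.1 TMM CPM in the low group. Of the 11 smooth muscle and pericyte records 5 were higher and 6 lower, with 0 past the threshold and a median near 0 (-0.00055). Their sum was 2860 to 4130 TMM CPM in the high group and 3071 to 5061 TMM CPM in the low group, but most of it was desmin (DES), which skeletal muscle also expresses. Without DES the sum was 626.0 to 689.4 TMM CPM in the high group and 462.0 to 603.4 TMM CPM in the low group, without overlap. In 3 of the 11 records all high libraries lay above all low libraries, a pattern of 13.5% of all records. These were the smooth muscle myosin MYH11 (log2 fold change 0.98, SE 0.22), the pericyte marker RGS5 (0.74, SE 0.26) and the smooth muscle actin ACTA2 (0.45, SE 0.21). In 0 of the 11 they all lay below. The 6 lower records included CNN1 at -0.31 (SE 0.21), TAGLN at -0.03 (SE 0.16) and the PDGFRB records at -0.14 (SE 0.27) and -0.00055 (SE 0.17). The part of fibroblast, adipocyte, smooth muscle or pericyte content in the levels of PTPRS and PTPRG was not tested.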

How the data were processed

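RNA from pig longissimus muscle was sequenced in 6 libraries, 3 per group. FastQC 0.10.1, Trimmomatic 0.22, TopHat2 2.0.4 and BWA 0.6.2 are named, per the submitters' processing notes. Which program counted reads, whether by strand, and on which genome build and annotation is not given in the sources used here. The authors deposited raw counts per gene and CPM (counts scaled to a library total), and the totals recovered from both were the library sizes here. The authors' deposited log2 fold changes run low over high and were turned round; their p-values and false discovery rates are per the file headers. The authors' fold changes were the same as those of edgeR's exact test to within 2.85e-08.

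Counts were fitted with edgeR 4.0.16 (R 4.3.3), TMM factors, filterByExpr (which kept all 7661 records) and the quasi-likelihood F-test of that version (legacy = FALSE) without covariates, with Benjamini-Hochberg adjustment over all records and a threshold of 0.05. Fold changes are high minus low, each standard error is the size of the log2 fold change divided by the root of F, and intervals use the moderated degrees of freedom. Log2 profiles used a prior count of 2. Exact permutation of 3 against 3 libraries gives p = 0.1 at best and is not used. The labels do not say that the libraries came from separate animals, so p-values measure only the spread between these libraries, which may be technical. The smallest totals give 3 counts a value of 0.118 CPM.

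The members and the 15 gene lists (272 genes) were chosen with earlier results of these data known. Named genes were all members, listed genes past the threshold, up to 4 more of each partner list by unadjusted p, and the 5 records most like PTPRS; other genes, among them single cell type markers and neighbours by position or pattern, were named after their values were seen. Names came from the deposited table for 6417 records and from the Ensembl name table for 401; 843 had none. Alternatives were DESeq2 1.42.0, limma-voom (limma 3.58.1), the exact test, other scaling factors, no filter, the replicate block, single libraries left out, the span trend removed (lowess, fraction 0.3, per library) and the 35 mitochondrially encoded genes left out. The older quasi-likelihood method, with its own or with trended dispersions, was added after seeing the data, as were list sums without each list's highest record. The test was tried on simulated counts before use.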

Additional observations from a re-analysis of the deposited data

How the results depend on the processing

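PTPRS, whose direction was fixed by its entry through the high group, stayed between 1.13 and 1.39 on the log2 scale in all 17 alternatives. Its call was lost in limma-voom (1.26, adjusted p = 0.0529), with the replicate block (1.26, edgeR adjusted p = 0.151), with the span trend removed (1.13) and with the older quasi-likelihood method on trended dispersions (1.26, edgeR adjusted p = 0.0527). With single libraries left out it was 1.16 to 1.39, with the call kept only without low library 1. Members called numbered 1 in the reported fit, 3 in DESeq2, 3 by the exact method, 0 in limma-voom, 0 under the replicate block, 0 with the span trend removed, 0 with trended dispersions and 0 to 1 with single libraries left out. The median of the 7 records was 0.15 with the span trend removed and 0.40 to 0.72 with single libraries left out, the top value without low library 1. The count over all records, 11, became 518 in DESeq2, 316 by the exact method, 2 under the replicate block and 1 to 30 with single libraries left out (1 without low library 2, 2, 6 and 7 without high libraries 2, 1 and 3, 30 without low library 1). PTPRC ranged from -0.58 to 0.45 with single libraries left out, turning positive without low library 2, and PTPRM from -0.046 to 0.28, turning negative without high library 3. The cause of these changes was not tested, except that leaving out a library also leaves fewer samples. Other scaling factors, no filter and removal of the mitochondrial genes kept the call of PTPRS and the 1 member called, with 11 to 16 records called in all. The fewest reads behind a member's value were 172, for PTPRC in high library 1. Deviations of same-numbered libraries correlated at 0.118, 0.0312 and -0.0815, which is no evidence of pairing. With deviations taken from means of 3 libraries these values cannot exclude it either. The labels name no pairing, and the fit with the replicate block above groups libraries by their number.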

Other observations

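Around PTPRS on chromosome 2 the table lists 23 neighbours within 1 Mb. Of them 6 were higher and 17 lower in the high group, with a median log2 fold change of -0.15 and a range of -0.98 to 0.39. The nearest, the histone demethylase KDM4B at 18.4 kb, had 0.12 (edgeR adjusted p = 0.711). The lowest was NMRK2, a nicotinamide riboside kinase of muscle, at -0.98 (edgeR adjusted p = 0.0910), and 0 of the 23 passed the threshold.

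The 7 phosphatases lie on 7 chromosomes. Within 1 Mb of PTPRK, 5 of 7 records were higher, with a median of 0.45, and within 1 Mb of PTPRA 3 of 16 were higher, with a median of -0.19. PTPRG and PTPRC had 1 listed neighbour each, at 0.17 and 0.24. None of the neighbours of these 4 members, or of PTPRB and PTPRM, passed the threshold in edgeR's quasi-likelihood test.

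The records most like PTPRG in pattern were TIMP3, an inhibitor of matrix proteases, the endothelial receptor HEG1, the integrin CD61, DDR2 and PREX2, at root mean square differences of 0.19 to 0.25. DDR2 was also among the 5 most like PTPRS. For PTPRB the nearest were GFAT1, PLS3, ARID4A, IDS and PPM1L, at 0.06 to 0.07, and for PTPRA ARHGAP1 at 0.03.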
